A study of Mus musculus with 12 samples.

Results

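The genes described here code for transcription factors whose activity is set by signals from outside the cell, together with a deacetylase that works with them. They were chosen by name as the rows for Mef2a, Mef2c, Mef2d, Atf2, Creb1, Elk1, Bcl6, Nr3c1 and Hdac4, and all 9 were among the 248 inflammation-related genes of the nCounter Mouse Inflammation V2 panel. The comparison asks how blood monocytes (MNCs) and Kupffer cells (KCs), which are macrophages resident in liver, differ in the mRNA of these regulators. 6 MNC samples and 6 KC samples were taken from Balb/C mice with no treatment named in the labels, each as a pool of sorted cells from 5 mice by the labels and from 4 to 5 by the methods of the study. Bead sorting used F4/80, which mouse macrophages carry on their surface, for blood and liver alike, but only the livers were digested with collagenases beforehand. From each pool 100 ng of total RNA was hybridised to probe pairs whose colour codes were counted molecule by molecule, without amplification. The values are counts that the authors normalized in each lane, and levels are given as mean ± SD (n = 6 samples) and compared between samples of the same gene only, since each gene has a probe of its own.

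MEF2 proteins (myocyte enhancer factor 2) bind AT-rich sites and are best known from muscle and nerve, but they also act in lymphoid and myeloid cells. Their activity is raised when p38 MAP kinases phosphorylate them, and it is held down by class IIa histone deacetylases such as HDAC4, which bind MEF2 on DNA and leave the nucleus when they are phosphorylated. ATF2, CREB1 and ELK1 are further end points of kinase cascades: ATF2 of p38 and JNK, CREB1 of cAMP and of the kinase MSK1, and ELK1 of ERK. BCL6 is a repressor that limits inflammatory gene expression in macrophages, and NR3C1 is the glucocorticoid receptor, which is activated by its hormone. The activity of most of these proteins is set after translation, so the mRNA gives how much of the regulator can be made and not how active it is.

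The promoters of the 4 members that passed the test are shown because the sites of the same factors were searched in them. The windows run from 250 bases before to 50 bases after the transcription start in the RefSeq annotation of GRCm38.p6, all 4 genes lie on the minus strand, and the sequences read 5′ to 3′ along the gene with the matched letters in capitals. The Mef2a window is chr7:67372809-67373108, the Hdac4 window chr1:92180292-92180591, the first of the 2 Bcl6 windows chr16:23988803-23989102 and the Atf2 window chr2:73892590-73892889.
Mef2a: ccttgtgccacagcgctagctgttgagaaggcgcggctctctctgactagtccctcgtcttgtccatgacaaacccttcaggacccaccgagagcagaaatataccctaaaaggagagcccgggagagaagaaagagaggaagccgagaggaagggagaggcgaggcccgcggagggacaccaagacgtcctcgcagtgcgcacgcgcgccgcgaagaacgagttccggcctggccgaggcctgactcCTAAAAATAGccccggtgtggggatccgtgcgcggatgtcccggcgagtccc
Hdac4: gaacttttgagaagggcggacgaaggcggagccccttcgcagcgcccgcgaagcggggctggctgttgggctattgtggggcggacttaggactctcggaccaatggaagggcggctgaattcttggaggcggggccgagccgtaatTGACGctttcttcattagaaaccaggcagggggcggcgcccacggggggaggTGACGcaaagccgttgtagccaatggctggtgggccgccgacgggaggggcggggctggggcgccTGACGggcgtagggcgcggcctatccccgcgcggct
Bcl6: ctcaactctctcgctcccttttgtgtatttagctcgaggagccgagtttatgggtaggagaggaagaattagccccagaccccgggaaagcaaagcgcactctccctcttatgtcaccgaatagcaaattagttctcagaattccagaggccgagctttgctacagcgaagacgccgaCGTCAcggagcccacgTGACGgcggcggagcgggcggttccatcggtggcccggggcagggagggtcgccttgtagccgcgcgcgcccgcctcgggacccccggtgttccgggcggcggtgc
Atf2: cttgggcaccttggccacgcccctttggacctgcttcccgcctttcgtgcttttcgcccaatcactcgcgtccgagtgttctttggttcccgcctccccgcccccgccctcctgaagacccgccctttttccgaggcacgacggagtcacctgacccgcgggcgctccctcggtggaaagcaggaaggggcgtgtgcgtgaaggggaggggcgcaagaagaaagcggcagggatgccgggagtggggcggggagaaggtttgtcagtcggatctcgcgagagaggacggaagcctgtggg

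The letters searched on both strands were the MEF2 consensus, the cAMP response element TGACGTCA bound by ATF2 and CREB1, its core TGACG, the ELK1-type ETS site CCGGAAGT and the glucocorticoid response element. The full element contains the core on both strands, so a window with the first is also counted for the second. Windows were found for 8 of the 9 members, 11 windows in all. The only MEF2 match among them was CTAAAAATAG in the promoter of Mef2a itself, from 2 bases before to 8 bases after the start, and 3.19% of all 32851 promoter windows held such a match. The core TGACG was found 3 times in the window of Hdac4 and 2 times in that of Bcl6, against 20.8% of all windows with at least 1 match. The full cAMP response element (1.79% of all windows), the ETS site (3.89%) and the glucocorticoid response element (0.00913%) had no match in the members' windows. A match gives letters only, and binding was not measured.

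4 of the 9 members differed between the cell types at an adjusted p under 0.05, against 56.5% of all 248 genes tested. Atf2, Bcl6 and Hdac4 were higher in KCs (35.1% of all genes were), and Mef2a was lower (21.4% of all genes were). The values of the groups did not overlap for Mef2a, Atf2 and Bcl6, that is 3 of 9 members against 41.5% of all genes. The median log2 fold change (KCs over MNCs) was 0.11 over the members and 0.05 over all genes. The differences were modest, between 1.57-fold and 1.63-fold in the 4 called genes. 7 members were above the background in all 12 samples, while Creb1 and Elk1 were at it in part of the samples of both cell types. The scaling between samples matters at this size of effect: after each sample was rescaled to its median gene the split of all called genes was 68 higher and 108 lower, and after quantile normalization 63 higher and 69 lower, in place of 87 and 53.

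**Figure D1:**
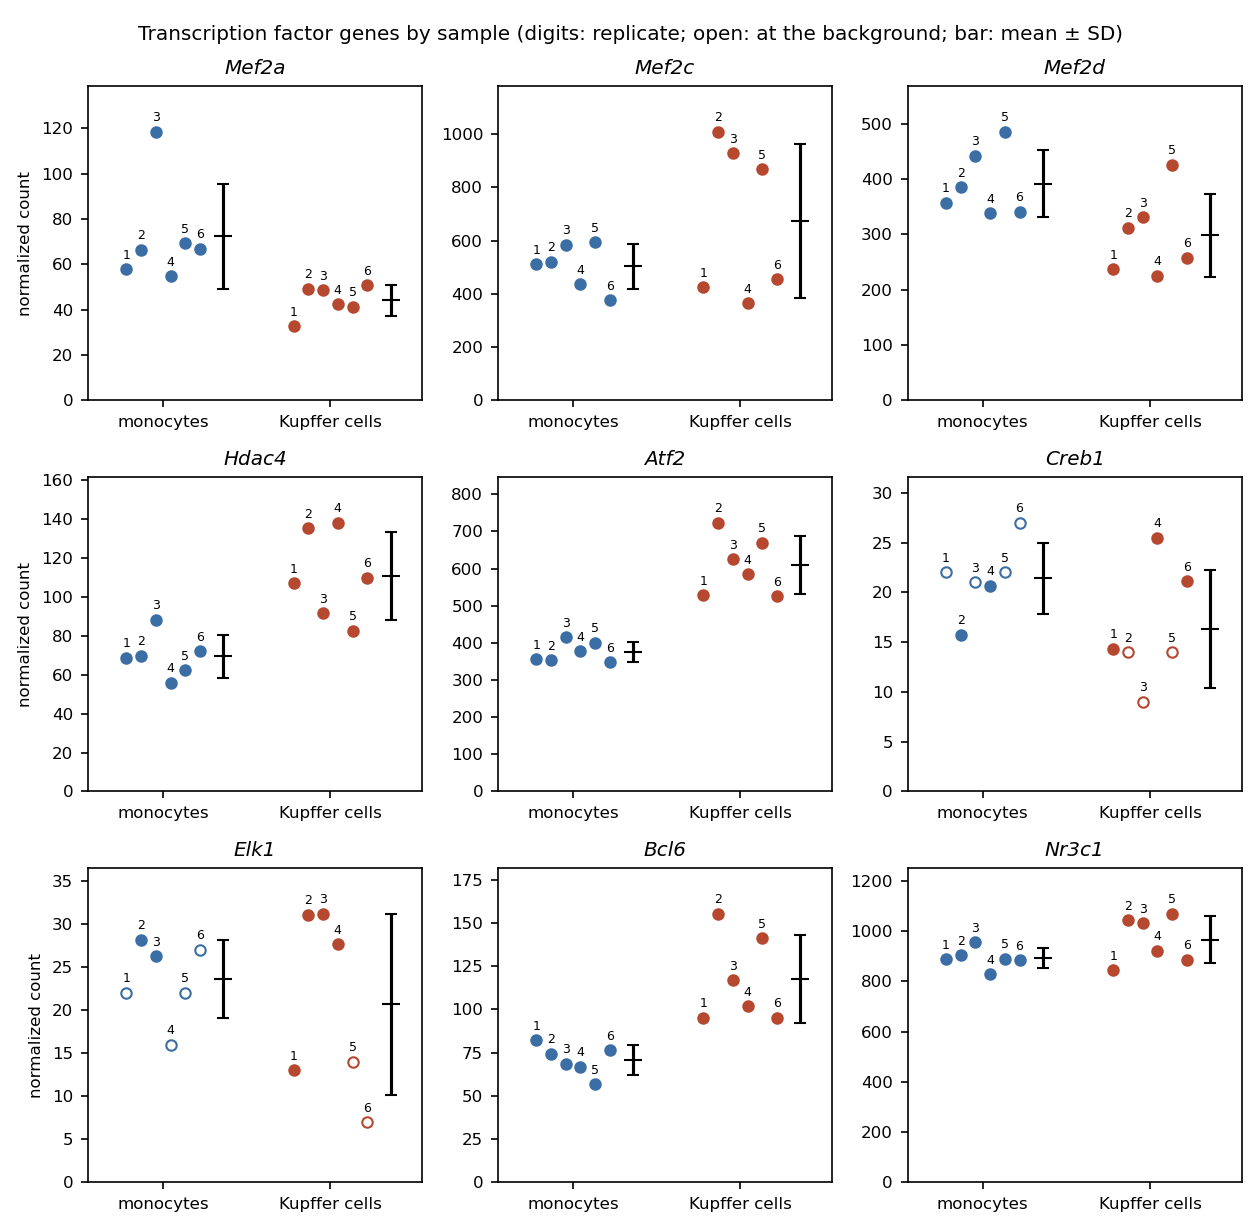
Normalized count (linear axes from 0, each with its own range) of the 9 genes in the 6 MNC and 6 KC samples, where a digit is the sample number, an open point a value listed at the background of its lane and the bar the mean ± SD. For Atf2 and Bcl6 all KC points lie above all MNC points, for Mef2a they lie below, and KC samples 2, 3 and 5 lie far above the other 3 for Mef2c.

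Mef2a, of the MEF2 paralogs the only gene that passed the test, was lower in KCs. In MNCs its normalized count was 54.7 in the lowest sample, 66.7 at the median and 119 in the highest, and in KCs 32.6, 45.6 and 50.7. Every KC sample was below every MNC sample, with means of 44.2 ± 6.85 in KCs and 72.3 ± 23.3 in MNCs. The log2 fold change was -0.66 (SE 0.19, 95% interval -1.07 to -0.26, limma adjusted p = 0.00833), or 1.58-fold lower in KCs. These values rest on 19 to 27 counted molecules per KC lane and 59 to 176 per MNC lane. MNC sample 3 stood apart from the other MNC samples at 119, and without it the log2 fold change was -0.51 (limma adjusted p = 0.0106). After quantile normalization it was -1.43.

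Mef2c did not pass the test, and its spread between KC samples was the widest of the 7 members that never fell to the background. The KC samples 1 to 6 had normalized counts of 425, 1009, 928, 365, 867 and 454. Samples 2, 3 and 5 thus stood at about the same high level and samples 1, 4 and 6 at about the same low level, with nothing between 454 and 867. The MNC values ran from 377 over a median of 516 to 593 and lay within the range of KCs. The SD of log2 values was 0.65 in KCs and 0.25 in MNCs, and that in KCs was larger than for 87.5% of the 160 genes above the background in all samples. The log2 fold change was 0.32 (SE 0.27, 95% interval -0.26 to 0.89, limma adjusted p = 0.296), so neither a small fall nor a rise of up to 1.86-fold could be told from no change.

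Mef2d was at 338, 371 and 486 in MNCs (lowest, median and highest) and at 225, 285 and 426 in KCs. 5 of the 6 KC samples were below every MNC sample, and the exception was KC sample 5. The log2 fold change of -0.41 (SE 0.17, 95% interval -0.78 to -0.04) had a limma adjusted p of 0.0550. Without KC sample 5 it was -0.52 (limma adjusted p = 0.0132). It came under the threshold in 8 of 21 alternative settings, with adjusted p-values between 0.000229 and 0.157, and was negative in all 21. Mef2b, the fourth paralog and no member, was at the background in all 12 samples.

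The paralogs were also set against each other within each sample, as ratios of normalized counts with 1 added to each. The factor of the lane cancels in them except for the effect of the added 1. The ratio of Mef2c to Mef2d was higher in KCs in every sample, at 1.62 to 3.22 in KCs and 1.11 to 1.43 in MNCs. On the log2 scale the mean ratio was 1.09 ± 0.40 in KCs and 0.36 ± 0.13 in MNCs (difference 0.73, SE 0.17, exact permutation test over all assignments of the samples to 6 and 6, two-sided p = 0.00216, the smallest it can give, and 0.00649 adjusted over the 3 pairs), that is 1.66-fold higher in KCs. The ratio of Mef2c to Mef2a was 8.43 to 20.5 in KCs and 4.90 to 8.71 in MNCs, a 1.98-fold difference (log2 0.98, SE 0.28, exact permutation p = 0.00649, adjusted p = 0.00974). Here the groups overlapped at KC sample 4, which was below MNC sample 1. It was below MNC sample 5 (8.43 against 8.46) only because of the added 1. The ratio of Mef2d to Mef2a differed by 0.25 on the log2 scale (SE 0.20, exact permutation p = 0.253), and KCs (5.00 to 10.1) overlapped MNCs (3.71 to 6.92). The mean balance of the paralogs in the KC samples was therefore moved towards Mef2c, relative to both other paralogs, although Mef2c itself did not pass the test. KC samples 1, 4 and 6 had Mef2c counts of 425, 365 and 454, below the MNC mean of 504. Their ratios of Mef2c to Mef2a were 12.7, 8.43 and 8.80, against 20.1, 18.7 and 20.5 in samples 2, 3 and 5. In bulk samples a change within KCs and another mixture of cells cannot be told apart.

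**Figure D2:**
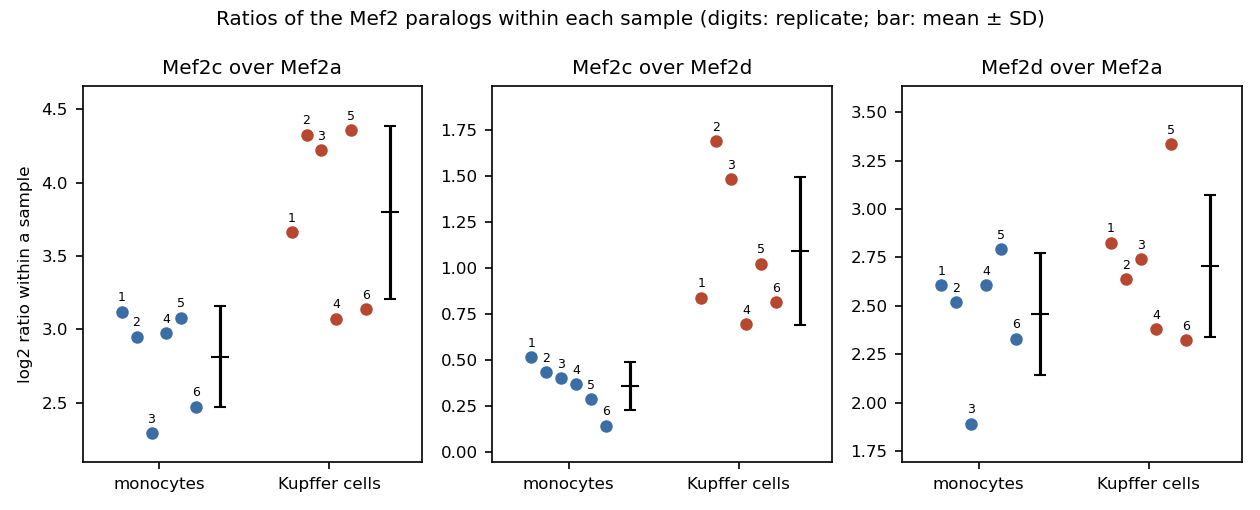
Log2 ratios of normalized counts, with 1 added to each, of the Mef2 paralogs within each sample (axes not from 0). A digit is the sample number and the bar the mean ± SD over 6 samples. The ratio of Mef2c to Mef2d is higher in each of the 6 KC samples than in any MNC sample, while KC samples 4 and 6 are close to MNCs for Mef2c over Mef2a and the groups are mixed for Mef2d over Mef2a.

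Hdac4, whose product binds MEF2 proteins and represses their targets, was higher in KCs. Its normalized count was 55.9, 69.2 and 88.2 in MNCs (lowest, median and highest) and 82.6, 108 and 138 in KCs. The groups met in a narrow range, where KC sample 5 was below MNC sample 3. The means were 69.4 ± 10.9 and 111 ± 22.5, with a log2 fold change of 0.65 (SE 0.16, limma adjusted p = 0.00326), or 1.57-fold. After quantile normalization the log2 fold change was 0.12 and no longer passed the test (limma adjusted p = 0.436).

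Of the factors at the end of kinase cascades, Atf2 was clearly measured and higher in KCs. It was at 348, 367 and 415 in MNCs (lowest, median and highest) and at 526, 605 and 724 in KCs. All KC samples were above all MNC samples. The log2 fold change was 0.69 (SE 0.12, limma adjusted p = 0.000237), or 1.62-fold, and it was the call among the members with the smallest adjusted p. It passed the test in all 21 alternative settings, with log2 fold changes from 0.28 to 0.80.

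Creb1 and Elk1 were too close to the background for a comparison. In MNC lanes 1 and 3 to 6 a gene listed at it may have been counted above the negative controls, since no gene there with fewer than 27 to 49 molecules, depending on the lane, is given a value of its own. Creb1 was listed at the background in 4 of 6 MNC and 3 of 6 KC samples. The other samples rested on 14 and 34 counted molecules in MNCs and on 10 to 12 in KCs. In KC sample 4 the 12 molecules only equalled the highest negative control of the lane. Its log2 fold change of -0.42 (limma adjusted p = 0.102) turned to 0.46 when the background was multiplied by the factor of the lane, which passed the test as higher (limma adjusted p = 0.0316), and to 0.04 at the higher of both limits (limma adjusted p = 0.840). It passed as lower after rescaling to the median gene (-0.67, limma adjusted p = 0.0149) and without KC sample 4 (-0.56, limma adjusted p = 0.0272). Elk1 was at the background in 4 of 6 MNC and 2 of 6 KC samples, and its log2 fold change of -0.33 (limma adjusted p = 0.369) turned to 0.45 and 0.01 in the same way. The direction of both genes thus depends on how a value under the background is written, and no direction is given for either.

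Bcl6, the repressor, was higher in KCs. Its normalized count was 56.9, 71.5 and 82.2 in MNCs (lowest, median and highest) and 95.1, 109 and 155 in KCs. The lowest KC sample was above the highest MNC sample. The log2 fold change was 0.71 (SE 0.16, limma adjusted p = 0.00157), or 1.63-fold. After quantile normalization it was 0.26 and did not pass the test (limma adjusted p = 0.128).

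Nr3c1, the glucocorticoid receptor, was at nearly the same level in both cell types. It was at 828, 890 and 955 in MNCs (lowest, median and highest) and at 844, 977 and 1069 in KCs, and the groups overlapped. The log2 fold change was 0.11 (SE 0.11, limma adjusted p = 0.377), and its 95% interval ran from a fold of 0.917 to 1.27. It was also among the least variable genes: its SD of log2 values was 0.07 in MNCs and 0.14 in KCs, and only 4.38% and 6.25% of the 160 genes above the background had a smaller one.

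**Figure D3:**
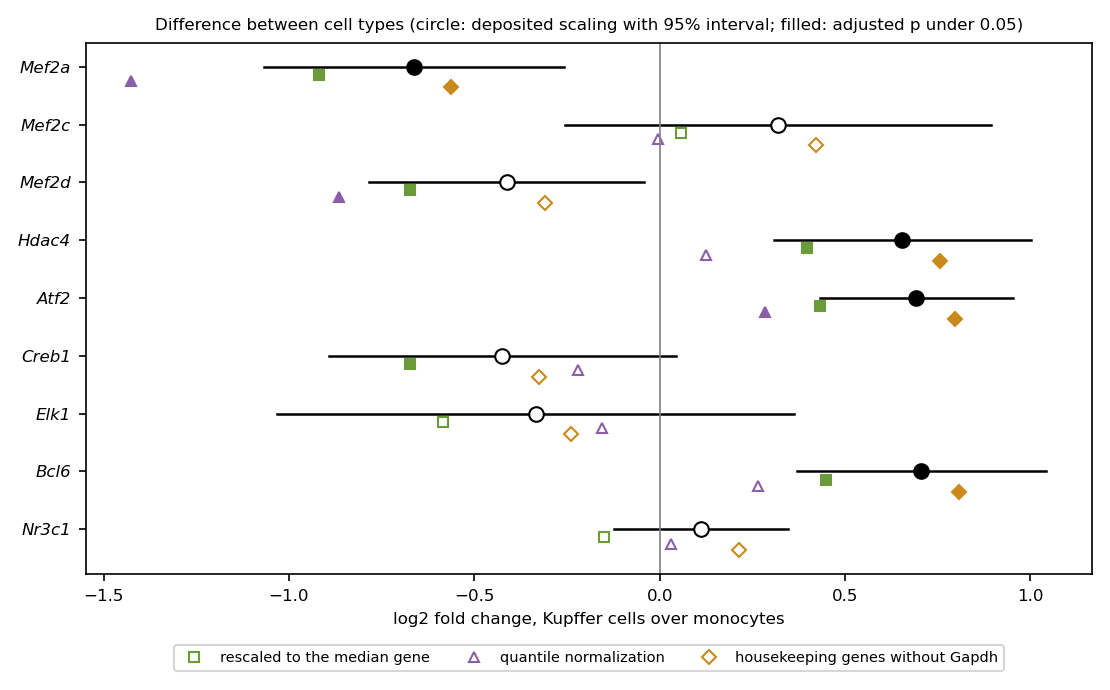
Log2 fold change (KCs over MNCs) of the 9 genes with the deposited scaling (circles with 95% intervals from limma) and with 3 other scalings, where filled symbols have an adjusted p under 0.05. Mef2a is lower and Atf2 higher under all 4 scalings, and quantile normalization brings Hdac4 to 0.12 and Bcl6 to 0.26.

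KC samples 2, 3 and 5 were the 3 highest KC samples not only for Mef2c but for 5 of the 7 members above the background (Mef2c, Mef2d, Atf2, Bcl6 and Nr3c1), against 33.8% of the 160 genes (54 genes). Within cell types, with the mean of each removed, log2 values of Mef2c went with those of Nr3c1 (Pearson r = 0.85), Mef2d (0.84) and Atf2 (0.81) over the 12 samples. The median over all pairs of the 160 genes was 0.15. These values are a description, since all genes of a sample share the lane, its factor and its mixture of cells. After rescaling to the median gene they were 0.74, 0.83 and 0.82. After quantile normalization they were 0.28, 0.83 and 0.60.

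The gene most like Mef2c among the 160 was Prkcb, which codes for protein kinase C beta, a kinase of lymphoid and myeloid signalling (r = 0.98). The next was H2-Ea-ps (0.97), a gene of the class II antigen-presenting complex whose name comes from mouse strains in which it is inactive. Prkcb was at 789, 1339, 1300, 665, 1282 and 759 in KC samples 1 to 6. H2-Ea-ps was at 9621, 21990, 17812, 10092, 18343 and 10264. The same samples 2, 3 and 5 were high for both, and neither gene passed the test between the cell types (log2 fold changes -0.24 and -0.37, limma adjusted p = 0.296 and 0.146). Mef2d went most closely with the kinase gene Map2k1 (0.91) and the cytokine gene Lta (0.90), and Nr3c1 with H2-Ea-ps (0.91) and Tgfb1 (0.89). Mef2a (Lta and Rapgef2, both 0.69) and Bcl6 (Rhoa and Irf5, both 0.77) had no gene as close. For Bcl6 the values within KCs were 0.89 (Rhoa) and 0.91 (Irf5), and within MNCs 0.33 and -0.04. For Mef2a they were 0.57 (Lta) and 0.31 (Rapgef2) within KCs, and 0.86 and 0.95 within MNCs. There MNC sample 3 was the highest for Mef2a (119), Lta (45.1) and Rapgef2 (330). For Nr3c1 they were 0.94 (H2-Ea-ps) and 0.96 (Tgfb1) within KCs, and 0.75 and 0.52 within MNCs.

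**Figure D4:**
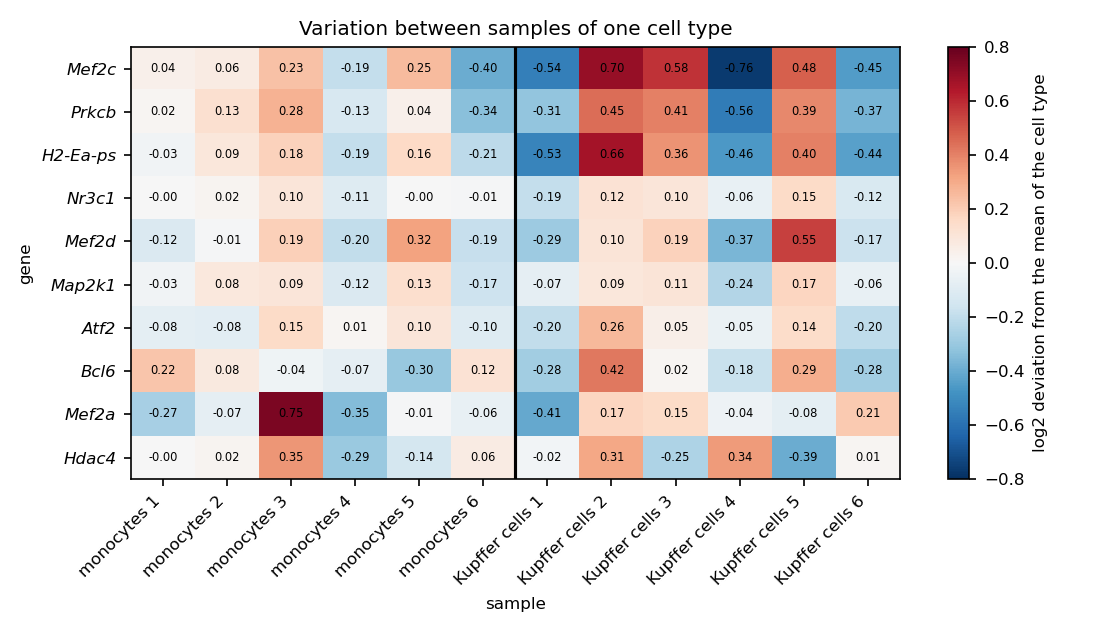
Log2 deviation of each sample from the mean of its cell type (colour and printed value) for the 7 members above the background in all samples and 3 of the genes most like Mef2c, Mef2d and Nr3c1. Mef2c, Prkcb and H2-Ea-ps are above the mean in KC samples 2, 3 and 5 and below it in samples 1, 4 and 6, while Hdac4 and Mef2a follow another order.

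Genes of other cell types also differed between the groups, and in bulk samples fewer cells of a type and less RNA per cell cannot be told apart. All 10 genes of secreted liver proteins were higher in KCs, with a summed normalized count of 4497 to 15348 against 63.1 to 270 in MNCs, where 7 of the 10 were at the background throughout. Of 10 T and NK cell genes 8 were higher in KCs (sums of 10220 to 36753 against 4070 to 7917), while 35.1% of all genes were. The endothelial gene Flt1 was also higher, at 52.2 to 151 in KCs against 9.01 to 27 in MNCs (log2 fold change 2.09, limma adjusted p = 2.22e-05). It was at the background in 5 of the 6 MNC samples. KC samples 2, 3 and 5, with the high values of Mef2c, had T and NK cell sums of 12786, 14928 and 14155 and liver sums of 15348, 8440 and 11853. KC samples 1, 4 and 6, with the low values, had T and NK cell sums of 36753, 10220 and 19728. Their liver sums were 4497, 11486 and 7523, so both sums overlapped between the high and the low samples. Ccl5 weighs most in the T and NK cell sum, with a mean log2 value of 13.57 in KCs against 11.36 for Ltb, the next gene. Lta, of the same list, did not overlap: it was at 60.3, 60.4 and 67.4 in samples 2, 3 and 5. In samples 1, 4 and 6 it was at 33.9, 36.1 and 46.5. The other genes of the list were not compared one by one between these samples. Of 6 macrophage genes, Cd163 and Mrc1 were higher in KCs and 4 were lower, among them C1qa (log2 fold change -2.17) and C1qb (-1.82), and Trem2 was at the background in all KC samples. The part of these other cells in the members' differences was not tested, and genes that define B cells were not analysed here.

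The kinases that act on these factors give the other end of the pathway. Of 19 genes of MAP kinase cascades, their small GTPase and protein kinase C, 8 were higher in KCs and none lower with the deposited scaling, while 4 were higher and 7 lower after rescaling to the median gene and 3 higher and 5 lower after quantile normalization. With the deposited scaling 42.1% of them were thus higher, against 35.1% of all genes, and 8 of 19 passed the test, against 56.5% of all genes. Of all 248 genes, 68 were higher and 108 lower after rescaling to the median gene, and 63 higher and 69 lower after quantile normalization. The median log2 fold change of the 19 genes with the deposited scaling was 0.18, against 0.05 over all genes. Map2k6, whose product activates p38, was the largest rise, from 64.8 ± 12.03 in MNCs to 137 ± 35.2 in KCs (log2 fold change 1.05, SE 0.19, limma adjusted p = 0.000338). Map3k7, the kinase TAK1, rose by 0.83 on the log2 scale (386 ± 41.2 to 693 ± 139, limma adjusted p = 0.000319). Both were also higher under the 3 other scalings, and their groups did not overlap. Mapk14 itself, the p38 kinase that phosphorylates MEF2 and ATF2, had a log2 fold change of -0.25 (limma adjusted p = 0.100), and it was lower with an adjusted p under the threshold after rescaling to the median gene (-0.51) and after quantile normalization (-0.48). Rps6ka5, the CREB1 kinase MSK1, had 0.80 (limma adjusted p = 0.00421), which did not pass the test after quantile normalization.

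**Figure D5:**
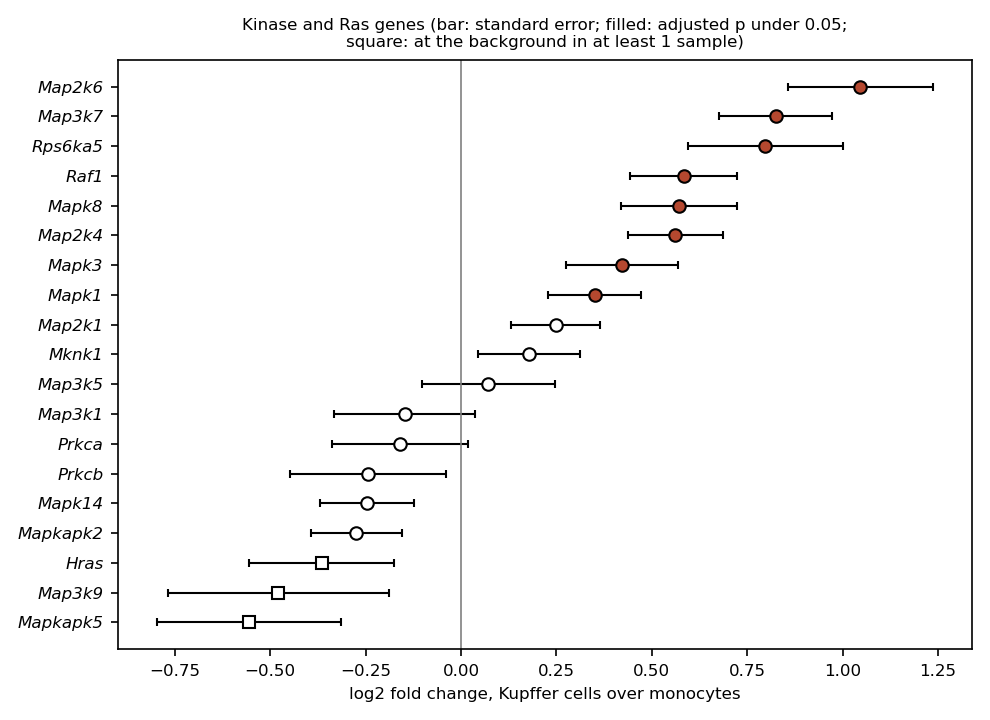
Log2 fold change (KCs over MNCs, with the SE from limma) of the 19 kinase and Ras genes with the deposited scaling, where filled points have an adjusted p under 0.05 and squares are genes at the background in at least 1 sample. 8 genes lie to the right of 0 with a filled point, led by Map2k6, and Mapk14 lies to its left with an open point.

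Several genes known to lie downstream had larger differences than any of the 9 members. Jun, which ATF2 pairs with and drives, went from 1046 ± 353 in MNCs to 5146 ± 1285 in KCs (log2 fold change 2.31, SE 0.22, limma adjusted p = 8.75e-07). Fos, the classical target of ELK1 and CREB1, went from 3804 ± 950 to 14818 ± 3283 (1.96, SE 0.19, limma adjusted p = 1.07e-06). Il6, a cytokine gene that glucocorticoids hold down, was lower in KCs, at 60.5 ± 23.0 against 253 ± 121 (-1.99, SE 0.30, limma adjusted p = 7.88e-05). Of the 7 target genes 4 were higher (with Tnf and the glucocorticoid-induced Cd163) and 1 lower with the deposited scaling. The share of higher genes was 57.1%, against 35.1% of all genes. After rescaling to the median gene 4 of the list were higher and 3 lower (68 and 108 of all 248 genes). After quantile normalization 4 were higher and 2 lower (63 and 69 of all genes). Myc and Il10 did not pass the test with the deposited scaling, and both were lower after rescaling to the median gene (-0.67 and -0.98), Myc also after quantile normalization (-0.51). Fos, Jun and Tnf also belong to the genes that respond early when cells are isolated. Of those 9 genes 6 were higher in KCs, against 35.1% of all genes, and 2 lower, among them Cxcl2 (log2 fold change -4.81). Their sums were 18143 to 33469 in KCs against 11358 to 17762 in MNCs, and in KCs Fos was the largest part. Since only the livers were digested, that response and the cell type cannot be told apart.

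Among 25 other transcription factor genes of the panel, 13 were higher in KCs and 3 lower with the deposited scaling. The share of higher genes was 52%, against 35.1% of all genes. After rescaling to the median gene 9 of the list were higher and 8 lower (68 and 108 of all 248 genes). After quantile normalization 9 were higher and 6 lower (63 and 69 of all genes). Mafg, a small MAF partner of stress-response factors, had the largest rise, from 75.8 ± 8.46 to 487 ± 300 (log2 fold change 2.49, SE 0.29, limma adjusted p = 6.37e-06), next to Jun. Cebpb, a myeloid factor that also responds to signals, had the largest fall, from 2985 ± 534 to 1087 ± 323 (-1.48, SE 0.19, limma adjusted p = 1.51e-05), and Irf5 was at 746 ± 33.1 in MNCs and 495 ± 144 in KCs (-0.64, limma adjusted p = 0.00852). With the deposited scaling, the fall of Mef2a was of about the size of that of Irf5, and no member differed by as much as Mafg, Jun or Cebpb. After quantile normalization Mef2a (-1.43) was past Cebpb (-1.35) and Irf5 (-0.93). That order rests on low counts of Mef2a, with 19 to 27 molecules per KC lane. The lanes also differed in the genes listed at the background (26 to 79 in MNCs, 29 to 58 in KCs), and the part of this in the order was not tested.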

How the data were processed

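The mRNA of 248 inflammation-related genes was analysed in 6 monocyte and 6 Kupffer cell samples. The deposited signal values are reporter counts that the authors normalized in nSolver 4 with 1 factor per lane, from positive controls and housekeeping genes by geometric means (4 of these genes are in the table). A gene under the highest of the 8 negative controls is listed at that count. In monocyte samples 1 and 3 to 6, with factors under 1, normalized values below that count are listed at it too: the fewest molecules of a gene above it were 27 to 49, against controls of 16 to 27. All values above it were whole multiples of the lane factor within 0.02, which returned 158730 to 339100 counted molecules per monocyte and 80944 to 140029 per Kupffer cell sample (factors 0.554 to 1.13 and 1.30 to 2.17, listed background 5 to 27 and 7 to 14). Since values at the background are not multiplied, no count model was used.

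Log2(value + 1) was fitted with limma 3.58.1 (R 4.3.3) on 12 samples in 2 groups, two-sided, with Benjamini-Hochberg adjustment over 248 genes and a threshold of 0.05. A fold change is on the log2(value + 1) scale and understates the change of low genes. Mef2 ratios, taken as differences of log2(value + 1), were compared by exact permutation tests over all assignments of the samples to 6 and 6. The steps were tested on simulated data. Nothing in the labels says that all pools came from separate mice, so p-values measure the spread between these samples, which may be technical. The members and gene lists were chosen with earlier results of these data known. The genes named are the members, the 2 genes most like each of Mef2a, Mef2c, Mef2d, Nr3c1 and Bcl6, and the 2 largest rises and falls among called genes of each list. Other genes of the lists are named where a result turns on them and were chosen after their values were seen. Alternatives concerned the pseudocount (10), a filter (above background in 6 samples), 3 scalings, the background, a replicate block, each sample left out and a Mann-Whitney test. The background at the higher limit was chosen after seeing the data. Promoter sequences are from RefSeq (GRCm38.p6). The table of the series held 0 columns of other samples. Tables and plots were made in Python 3.11.15 (pandas 2.3.3, numpy 2.4.6, matplotlib 3.10.9).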

Additional observations from a re-analysis of the deposited data

Results flagged for a closer look

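Mef2a in monocyte sample 3 was at 118.51, far from the other 5 monocyte samples, whose highest was 69.3 (its gap was 0.771 of the range of the group). It was the only such value among 20 groups of 6 samples examined, and chance gives about 1 in 20. Without this sample Mef2a had a log2 fold change of -0.51 (limma adjusted p = 0.0106).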

How the results depend on the processing

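The number of members called was 4 to 5 with each sample left out in turn and 3 to 6 under the other alternatives (3 after quantile normalization, 6 after rescaling to the median gene, as 3 higher and 3 lower, and 6 with the background times the lane factor, as 4 higher and 2 lower). Mef2a and Atf2 passed the test in all 21 alternatives, with the direction given. Hdac4 (0.12) and Bcl6 (0.26) lost the call under quantile normalization alone. Directions turned for Nr3c1 (-0.15, rescaled to the median gene), Mef2c (-0.0040, quantile normalization), Creb1 and Elk1 (0.46 and 0.45 with the background times the lane factor, 0.040 and 0.0070 with the background at the higher limit). Creb1 passed the test as higher with the background times the lane factor and as lower after rescaling to the median gene (-0.67) and without KC sample 4 (-0.56). The difference in Mef2d over Mef2a passed the test after quantile normalization (0.56). The ratios of Mef2c kept their call in all 17 alternatives, and with each sample left out ran from 0.87 to 1.13 (over Mef2a) and from 0.61 to 0.81 (over Mef2d). The labels do not say whether MNC and KC samples of the same replicate number belong together. Correlations of deviations between them ran from -0.23 to 0.40, and without values for unmatched samples they cannot decide it. With the replicate block 5 members were called, Mef2d in addition (adjusted p = 0.0147), and the block changed no other call of a member or a ratio. Against the deposited scaling, the median of 160 genes moved by -0.26 after rescaling to the median gene and -0.33 after quantile normalization. It moved by 0.10 after rescaling to the housekeeping genes Cltc, Gusb and Pgk1, without Gapdh. Hprt and Tubb5, which the paper also lists for normalization, took no part in that setting, so it does not show the effect of Gapdh alone. The housekeeping genes moved apart: in MNCs and KCs, Gapdh was at 1704 ± 58.6 and 2971 ± 912, Pgk1 at 151 ± 16.0 and 289 ± 65.2, Cltc at 2140 ± 131 and 2655 ± 198, and Gusb at 933 ± 166 and 324 ± 62.7. Without monocyte sample 2, whose background was the lowest, 86 of all genes were lower in place of 53. The causes were not tested. Depth limits Creb1, Elk1 and, in KCs, Mef2a.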
